A study of Mus musculus with 302 samples.

Results

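The genes of the proteasome were described across the livers of 302 F2 mice. Members were all probes with 1 gene symbol whose symbol starts with Psma to Psmg and a number. This gave 51 probes of 37 genes, of 10838 genes named on the array and 23562 probes in the table, and each of the 51 had a value in all 302 livers. By role they were 11 probes of 7 core alpha subunits, 12 of 7 core beta subunits, 3 of the immunoproteasome subunits Psmb8, Psmb9 and Psmb10, 5 of 4 regulatory ATPases and 10 of 8 regulatory genes without ATPase activity (Psmd), of which Psmd5 and Psmd10 encode chaperones of regulatory particle assembly. The rest were 5 probes of 3 activators, the inhibitor Psmf1, the assembly chaperones Psmg1, Psmg2 and Psmg4, and Psmc3ip, which meets the naming rule but encodes a recombination cofactor and not a subunit. Psmd1 was among the genes not analysed here. The activator subunit Psme2 appears in the probe table as Psme2b, its near-identical copy, so which of these genes those probes read is uncertain.

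All mice belong to 1 group. They were F2 offspring of C57BL/6J and C3H/HeJ crossed in both directions, female and male, and the label of a single mouse gives neither its sex, its cross direction nor its genotype. Chow with 4% fat was given for the first 8 weeks of life, followed by 12 weeks of a Western diet with 42% fat and 0.15% cholesterol, and livers were taken at 20 weeks after a fast of 12 h. Each liver's RNA was set against a common pool of all livers on a 2-colour array, so a value is the log ratio of 1 mouse to the average mouse and carries no absolute level. The log base and direction are not stated. Base 10, with the mouse on top, is the likely reading and was used, and the direction bears on the sign of the differences from the pool and between number ranges but on no correlation. Because levels are lacking, the labelled tissue could not be checked against liver markers, and the design supports comparisons among mice, not between treatments.

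The arrays had medians between -0.0117 and 0.0174 and SDs over their probes between 0.0696 and 0.258, with a median of 0.0975. The mice fell into 4 blocks by the level of Eif2s3y, a Y-linked gene, below or above -0.8, and by a title number above 212 or up to 212. The blocks held 65, 77, 78 and 82 mice, and every value was centred within its block unless stated otherwise. Nothing in the labels says what parts the number ranges, and no sex was assigned. Of 45451 pairs of arrays, 879 correlated under -0.3, the lowest at -0.508. Mouse RNA carried the same dye on every array, and no array was turned.

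The proteasome degrades proteins tagged with ubiquitin. Its core particle is a barrel of alpha rings, which gate the channel, and beta rings, of which Psmb5, Psmb6 and Psmb7 carry the proteolytic sites. The regulatory particle binds and unfolds substrates with a ring of ATPases (Psmc genes) and non-ATPase subunits (Psmd genes) that recognise and remove ubiquitin. Interferon-induced Psmb8, Psmb9 and Psmb10 replace Psmb5, Psmb6 and Psmb7 in the immunoproteasome, which makes peptides for MHC class I molecules, and Psme1 and Psme2 form the activator PA28 that can cap the core in place of the regulatory particle.

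The proximal promoters of 3 members the results turn on are shown first, since Psmb8, Psmb9 and Psme1 moved together across the livers. They lie on GRCm38.p6 at chr17:34197945-34198244 (plus strand, Psmb8), chr17:34187281-34187580 (minus strand, Psmb9) and chr14:55578244-55578543 (plus strand, Psme1), and are RefSeq sequences of 250 bases before to 50 after the gene start, written 5′ to 3′ along the gene. Capitals mark a match to TTCNNNGAA, the core of the interferon gamma element, in Psmb8, a match to CCAAT on the reverse strand in Psmb9, and a match to the core of the interferon-stimulated element (GAAA, any 2 bases, GAAA) on the reverse strand in Psme1.
Psmb8: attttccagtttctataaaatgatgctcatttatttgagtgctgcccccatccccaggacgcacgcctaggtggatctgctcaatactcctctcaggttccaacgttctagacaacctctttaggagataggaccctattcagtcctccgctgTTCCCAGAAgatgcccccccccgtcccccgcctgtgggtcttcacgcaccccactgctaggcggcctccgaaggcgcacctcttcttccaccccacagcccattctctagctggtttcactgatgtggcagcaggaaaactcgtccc
Psmb9: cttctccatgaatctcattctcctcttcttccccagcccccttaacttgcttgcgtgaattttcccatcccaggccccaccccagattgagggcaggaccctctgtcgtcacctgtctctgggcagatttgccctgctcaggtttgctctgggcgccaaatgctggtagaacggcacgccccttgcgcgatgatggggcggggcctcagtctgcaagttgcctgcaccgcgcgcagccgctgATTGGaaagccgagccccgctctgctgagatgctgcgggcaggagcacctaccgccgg
Psme1: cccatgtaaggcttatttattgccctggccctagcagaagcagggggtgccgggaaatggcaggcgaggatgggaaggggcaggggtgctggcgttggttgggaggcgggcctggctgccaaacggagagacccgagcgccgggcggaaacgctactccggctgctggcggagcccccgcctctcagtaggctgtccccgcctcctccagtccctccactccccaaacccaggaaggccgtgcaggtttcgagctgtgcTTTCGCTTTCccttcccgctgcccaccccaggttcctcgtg

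RefSeq promoters were at hand for 30 of the 37 genes. Matches were sought on both strands of each window, with no claim that a match is a site. TTCNNNGAA was found in 3 of 31 member promoters, since Psma6 has 2 (Psmb8, Psmd2 and Psmg1), and 8.30% of all 32841 promoters hold it. The core of the interferon-stimulated element was found in 4 (Psmb3, Psmd4, Psme1 and Psmg4), against 3.44% of all promoters. The antioxidant element core TGACNNNGC was in 2, Psmb5 and Psmb6, against 12.4% of all, and CCAAT in 13, against 37.4% of all. A heat shock element of 3 alternating TTC and GAA units, each 2 bases apart, was in 0 member promoters and in 0.603% of all. Psmb9 held neither interferon motif in this window.

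The immunoproteasome subunits varied more between livers than any other member, and the constitutive genes about as much as a typical probe of the array or somewhat less. The SD over mice had a median of 0.0562 over the 51 probes, 1.14-fold on the linear scale, against 0.0616 over all 23512 probes used, or 1.15-fold, and 19 of the 51 lay above that overall median. By role the median SD was 0.118 for the immunoproteasome, 0.0640 for alpha, 0.0503 for beta, 0.0534 for ATPase and 0.0570 for non-ATPase probes. Above the overall median lay 8 of 11 alpha, 3 of 12 beta, 0 of 5 ATPase and 4 of 10 non-ATPase probes. The 3 immunoproteasome probes stood at the 81.7 (Psmb10), 88.2 (Psmb8) and 93.4 (Psmb9) percentile of all probes, and no other member probe was above the 73.1 percentile, that of a Psma4 probe.

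Psmb9, which replaces Psmb6, had the widest spread: its uncentred log ratio was -0.527 in the lowest liver, -0.0896 in the median and 0.728 in the highest, and the 5th and 95th percentiles lay 3.29-fold apart. Psmb8, which replaces Psmb5, was -0.418 in the lowest liver, -0.0362 in the median and 0.830 in the highest, with 2.25-fold between the same percentiles. Psmb10, which replaces Psmb7, was -0.386 in the lowest, -0.0558 in the median and 0.421 in the highest, a 2.36-fold span. All 3 reached their highest value in the same liver, whose Psmb8 of 0.830 was well above the next at 0.432. That liver also had the highest values of a Psme1 probe (0.291) and a Psme2b probe (0.323).

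The core beta subunit Psmb4 was among the steadiest members, at -0.172 in the lowest liver, 0.00661 in the median and 0.255 in the highest, with 1.22-fold between the 5th and 95th percentiles. Psma6, of the alpha ring, ranged from -0.0828 to 0.203 with a median of 0.0245 and a span of 1.40-fold. Wider than most constitutive members were Psmd14, the deubiquitinase of the regulatory particle, from -0.293 through a median of 0.0398 to 0.234 (1.94-fold), and Psma1, whose lowest liver at -0.469 lay far below its 5th percentile of -0.0830. The mean of the 26 constitutive genes (alpha, beta, ATPase and non-ATPase) spanned only 1.27-fold between the 5th and 95th percentiles and 1.52-fold between the extreme livers.

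**Figure D1:**
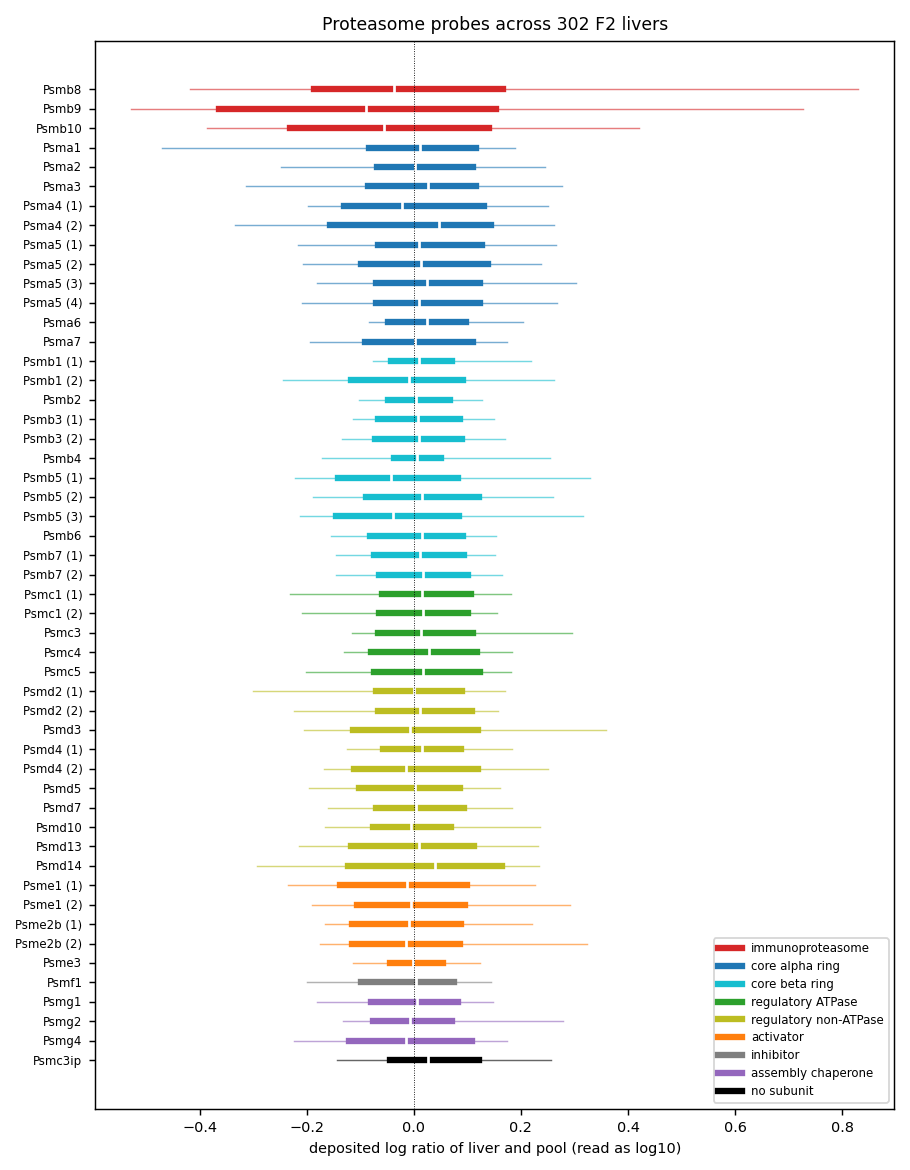
Uncentred log ratio (x axis, read as log10 of liver over pool) of each of the 51 probes (y axis; numbers in brackets tell probes of a gene apart) over 302 livers. Thin lines run from the lowest to the highest liver, thick bars from the 5th to the 95th percentile, and white ticks mark the median; Psmb8, Psmb9 and Psmb10 at the top span the most.

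The constitutive genes were positively correlated across livers, most tightly in the ATPase ring. Over 325 pairs of the 26 constitutive genes the mean Pearson r was 0.299, and 290 pairs were positive, while the mean over all pairs of 10815 named genes was 0.00354. The ATPases Psmc1, Psmc3, Psmc4 and Psmc5 had a mean r of 0.701, from 0.628 to 0.788 over 6 pairs. Alpha subunits averaged 0.435 with 21 of 21 pairs positive, beta subunits 0.286 with 20 of 21, and non-ATPase genes 0.162 with 19 of 28. Without Psmd5 and Psmd10, a choice made after the data were seen, the mean was 0.349 over 276 constitutive pairs and 0.247 over 15 non-ATPase pairs. Core and regulatory subunits averaged 0.274 across the particles, with 148 of 168 pairs positive. The mean over constitutive pairs was 0.429, 0.295, 0.259 and 0.247 in the blocks of 65, 77, 78 and 82 mice, so it was positive in each. With the first principal component of all probes removed, the mean over the 325 constitutive pairs was 0.226, and 271 were positive. In that setting ATPases averaged 0.619, alpha subunits 0.337, beta subunits 0.199 and non-ATPase genes 0.152.

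Psma5, of the alpha ring, followed the mean of the other constitutive genes most closely, with r = 0.839, and the ATPases Psmc3, Psmc4 and Psmc1 came next at 0.813, 0.779 and 0.776. The Psma5 value averages more probes than that of any other member, and the effect of probe number on r was not tested. Of the 26 genes 23 had r over 0.3, with a median of 0.542, while 9.16% of 10778 other named genes did, with a median of 0.0222. The 3 under 0.3 were Psmd3 (0.263), a lid subunit, Psmd5 (0.146), a chaperone of regulatory particle assembly, and Psmd10 (-0.0475), the assembly chaperone gankyrin. Outside the constitutive set, the r with the constitutive mean was -0.330 for Psmb10, -0.145 for Psmb9 and -0.0534 for Psmb8. It was -0.332 for Psme1, -0.107 for Psme2b, -0.200 for the nuclear activator Psme3 and -0.230 for the inhibitor Psmf1. The chaperones Psmg1, Psmg2 and Psmg4, which help the alpha ring assemble, gave 0.329, 0.133 and -0.0965, and Psmc3ip gave 0.239. Across the 4 blocks, the r of Psma5 stayed between 0.806 and 0.858 and that of Psmc3 between 0.710 and 0.924.

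Of named genes outside the family, those most like the constitutive mean over 302 livers were Cct3 (r = 0.698), Eif2b4 (0.685), Vcp (0.685), Ftsj1 (0.659), Cct8 (0.649), Cct5 (0.648), Cct2 (0.632), Gm4879 (0.629), Serpina3f (0.626) and Txnl1 (0.617). The 4 Cct genes encode subunits of the cytosolic chaperonin, Vcp the segregase that hands ubiquitinated proteins to the proteasome, Eif2b4 a subunit of the translation factor eIF2B, and Txnl1 a thioredoxin bound to the regulatory particle. Vcp and Txnl1 also stand on the partner list used further on. These r are descriptions, since the points share arrays and a pool.

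**Figure D2:**
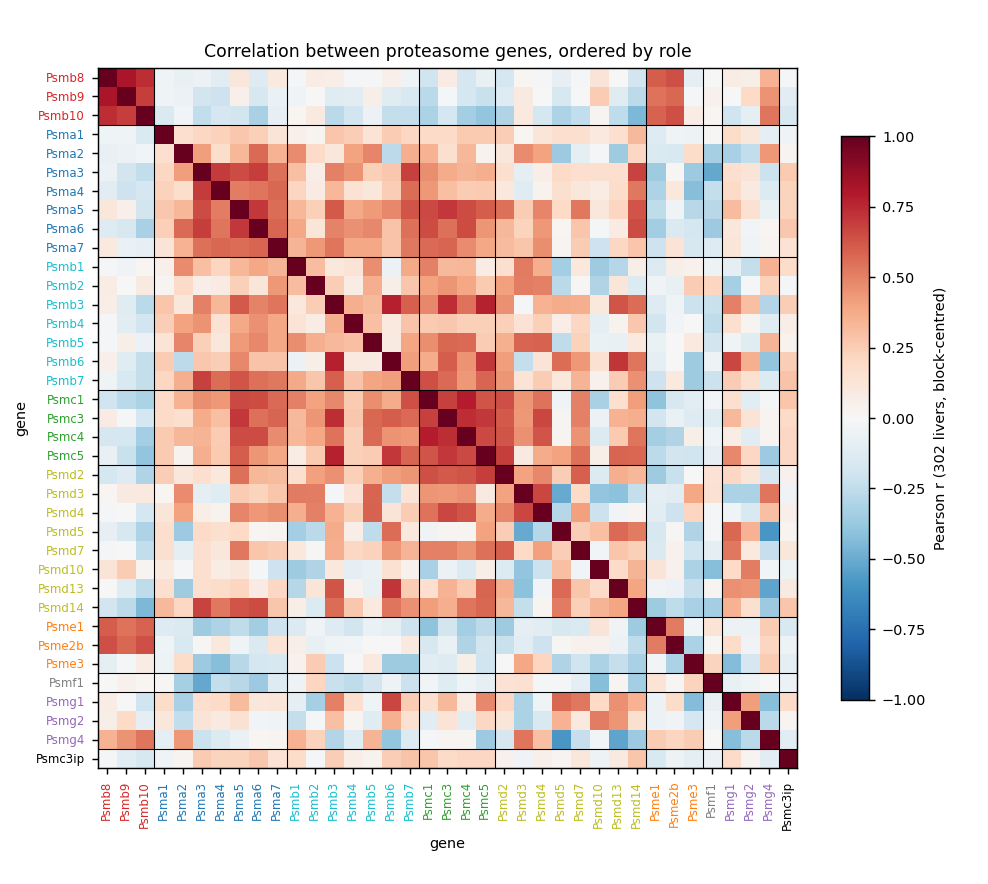
Pearson r between block-centred means of the 37 member genes over 302 livers, with genes on both axes ordered by role and black lines between roles; red is positive and blue negative. Psmb8, Psmb9 and Psmb10 form a block with r from 0.692 to 0.817 that extends to Psme1 and Psme2b, and the ATPases form another from 0.628 to 0.788.

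The immunoproteasome subunits were correlated with each other, while none was positively correlated with the subunit it replaces. Psmb8 and Psmb9 had r = 0.817 (Spearman's rho 0.752), Psmb8 and Psmb10 r = 0.738 (rho 0.694), and Psmb9 and Psmb10 r = 0.692 (rho 0.620), each with adjusted p = 1.435e-05 for r over 33 gene pairs from 100000 permutations within blocks. The permutations could give no smaller raw p than 1e-05. Without the 2 livers farthest from the median of the first gene, the r values were 0.779, 0.705 and 0.651. In the blocks of 65, 77, 78 and 82 mice, Psmb8 and Psmb9 had r of 0.888, 0.827, 0.712 and 0.773. Both genes lie on chromosome 17, and linked genes share alleles in an intercross. Whether linkage lies behind their r was not tested. Psmb8 and its counterpart Psmb5 had r = -0.0142 (adjusted permutation p = 0.803). Psmb9 and Psmb6 had r = -0.124 and rho = -0.191 (adjusted permutation p = 0.0421 for r), and Psmb10 and Psmb7 had r = -0.241 (adjusted permutation p = 5.5e-05). Over all pairs of an immunoproteasome and a core gene the mean r was -0.0791, with 10 of 42 positive, and with the first principal component of all probes removed it was 0.0492 with 29 of 42 positive.

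**Figure D3:**
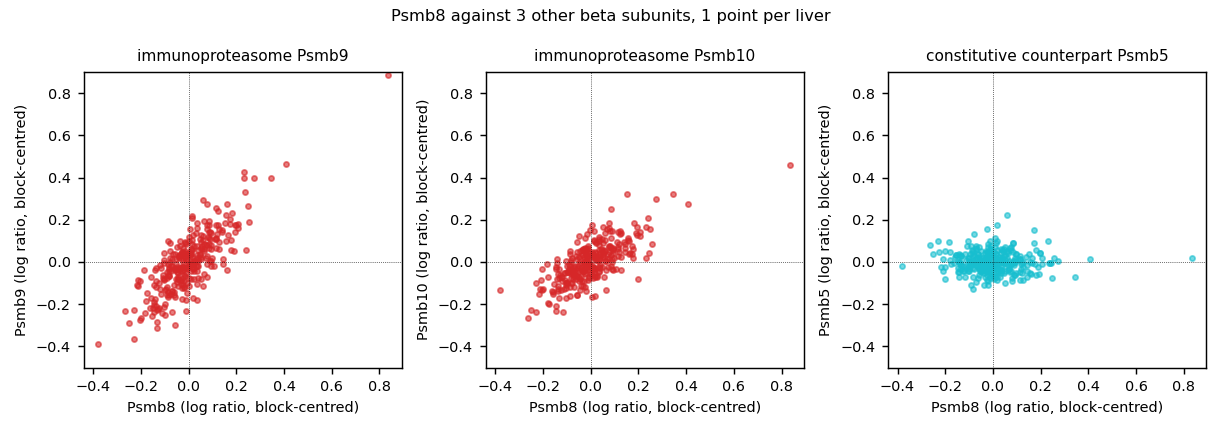
Block-centred log ratio of Psmb9, Psmb10 and Psmb5 (y axes) against that of Psmb8 (x axis), with 1 point for each of 302 livers. The points rise along Psmb8 for Psmb9 and Psmb10 (r = 0.817 and 0.738) and lie level for Psmb5 (r = -0.0142), and 1 liver stands apart at the far right.

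Along Psmb8 as the anchor, limma called 12 of the 50 other member probes, 7 higher and 5 lower, that is 24.0%, where 15.4% of all probes were called, 7.46% higher and 7.95% lower. The 7 that rose were Psmb9, Psmb10, both probes each of the PA28 genes Psme1 and Psme2b, and the chaperone Psmg4. The PA28 probes rose 1.08- to 1.09-fold for Psme1 and 1.07- to 1.09-fold for Psme2b per SD of Psmb8, with r of 0.601 and 0.560 for the Psme1 probes and 0.598 and 0.663 for the Psme2b probes (limma adjusted p from 3.05e-36 to 1.72e-23). The 5 that fell were both probes of Psmc1 and 1 each of Psmd2, Psmd14 and Psmc4, with the constitutive median r at -0.0209. With the first principal component as a covariate 15 were higher and 1 lower. All 7 stayed higher, and of the 5 only the Psmd2 probe (r = -0.201) stayed lower. Constitutive probes called higher numbered 7 in that fit, against 0 without the component. The PA28 subunits themselves had r = 0.523, while Psme1 and the other activator Psme3 had r = -0.0305 (adjusted permutation p = 0.612).

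The same anchor called 23 of 27 probes of the interferon response list, all higher, with a median r of 0.369. Largest in r among them were the guanylate-binding and immunity-related GTPases Gbp3 (0.705), Igtp (0.644) and Irgm1 (0.615) and the transcription factor Irf7 (0.586). Of the 15 probes of the MHC class I list 8 were higher and 0 lower, among them H2-T23 (0.650), the peptide transporter Tap1 (0.577), H2-M3 (0.478), Irf1 (0.411), H2-K1 (0.387), Tap2 (0.377) and B2m (0.239). H2-Q7 (r = 0.0936), Tapbp (-0.0281), Erap1 (0.0423), Pdia3 (-0.0655) and the ER chaperones Canx and Calr on that list did not pass. Tap1 and Tap2 are the nearest measured neighbours of Psmb8 on its chromosome. Whether linkage lies behind the r of this list was not tested.

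The same correlations with Psmb8 were reused, so no separate support came from the interferon response list, 25 measured genes of 30. Per SD of its mean, Psmb9 rose 1.23-fold (log ratio slope 0.0885 ± 0.00665 SE, r = 0.609, limma adjusted p = 2.27e-29), Psmb8 1.17-fold (0.0676 ± 0.00555, r = 0.576, adjusted p = 2.27e-25) and Psmb10 1.10-fold (0.0431 ± 0.00516, r = 0.435, adjusted p = 4.06e-13), over 302 livers. The Psme2b probes rose 1.04- and 1.05-fold, both Psme1 probes 1.04-fold, and Psmd10 and Psmg4 1.03-fold each. In all 16 of 51 probes were called, 9 higher and 7 lower, or 31.4% against 20.5% of all probes. Of all probes 8.72% were higher and 11.7% lower, the latter near the 13.7% of members called lower. Without blocks 25 members were called. All 7 that fell were constitutive, among them both probes of Psmb7 and Psmc1, with folds of 0.977 to 0.987, and with the first principal component as a covariate none of the 7 was called and the counts were 12 higher and 0 lower. In that fit Psmb9 (r = 0.581), Psmb8 (0.560) and Psmb10 (0.387) still rose, and 5 constitutive probes were higher, against 1 without the component. The median r over the 51 probes was -0.0434, against -0.0351 over all probes. Within blocks of 65, 77, 78 and 82 mice, the r of Psmb9 with the list was 0.744, 0.548, 0.578 and 0.521, and that of Psmb8 0.691, 0.543, 0.551 and 0.469. Without the 2 livers farthest from their median these r were 0.575 for Psmb9, 0.538 for Psmb8 and 0.403 for Psmb10.

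Cell markers moved with the immunoproteasome as well. All 3 immunoproteasome probes rose with the T and NK cell list (12 measured genes of 16), with r of 0.575 for Psmb8, 0.523 for Psmb10 and 0.455 for Psmb9, and with the macrophage and Kupffer cell list (20 of 21), with r of 0.480 for Psmb10, 0.431 for Psmb9 and 0.399 for Psmb8. Along Psmb8, 16 of the 20 macrophage genes rose and 0 probes fell, including C1qa, C1qb, C1qc, Clec4f and Vsig4, and 9 of the 12 T and NK genes rose and 0 fell, including Cd3d, Cd3e, Cd3g, Cd8a and Ccl5. The lists' standardized means ran from -2.16 to 6.01 SD for T and NK cells and from -2.45 to 2.97 SD for macrophages, and the liver with the highest Psmb8 stood at 5.58 and 2.97 SD on them and at 3.65 SD on the interferon list. In whole liver RNA, fewer cells of a type and less RNA per cell cannot be told apart.

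With both cell lists as covariates, a setting added after the data were seen, Psmb9 (r = 0.481), Psmb8 (0.428), Psmb10 (0.217) and both Psme2b probes (0.239 and 0.254) still rose with the interferon list, as did constitutive probes of Psma5, Psmc5, Psmd2, Psmd7 and Psmd10. The Psme1 probes no longer passed, with r of 0.0314 and 0.0501. In this fit 12 of 51 members were called, all higher, where 14.7% of all probes were called in either direction and 7.02% higher, and the 7 constitutive probes called lower without the covariates were not called lower.

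Along the T and NK cell list 16 of 51 probes were called, 8 higher and 8 lower. Of all probes 19.5% were called along it, 7.86% higher and 11.6% lower. The 8 that rose were the 3 immunoproteasome probes, the 4 PA28 probes and Psmg4, and 0 of the 38 constitutive probes rose. With the first principal component as a covariate the 8 stayed higher in a count of 12 higher and 2 lower, and 6 of the 8 lower calls were lost. Constitutive probes called higher in that fit numbered 4. The MHC class I list called 29 of 51, 19 higher and 10 lower, against 32.5% of all probes, with the immunoproteasome at 1.17-fold (Psmb8), 1.19-fold (Psmb9) and 1.10-fold (Psmb10) per SD. There the constitutive genes split, with 10 higher and 9 lower of 38, such as Psmb6 up at r = 0.273 and Psma2 down at r = -0.347.

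Most constitutive genes rose with heat shock chaperones and with the ubiquitin system. Of the 51 probes 36 were called along the heat shock list (13 genes, such as Hspa8, Hsp90aa1 and Dnajb1), 31 higher and 5 lower, where 40.7% of all probes were called and 21.3% were higher. The constitutive share was 29 higher and 0 lower of 38, with a median r of 0.316 against 0.00465 over all probes. With the first principal component as a covariate the constitutive median r was 0.183, with 24 higher and 1 lower. The ATPase Psmc5 rose 1.07-fold per SD (log ratio slope 0.0290 ± 0.00278 SE, r = 0.517, limma adjusted p = 1.9e-19), a Psma5 probe 1.07-fold (r = 0.497, adjusted p = 7.91e-18) and Psmd14 1.09-fold (r = 0.466, adjusted p = 1.85e-15). The 5 that fell were Psmb10 (r = -0.299), Psme3 (-0.287), a Psme1 probe (-0.235), Psmf1 (-0.230) and Psmg4. Within the blocks of 65, 77, 78 and 82 mice Psmc5 had r of 0.661, 0.653, 0.442 and 0.385 with this list.

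The list of ubiquitin and proteasome partners (16 measured genes of 32, such as Vcp, Usp14, Uchl5, Ubqln1 and Rad23b) called 42 of 51 probes, 36 higher and 6 lower, against 31.9% of all probes in either direction and 18.5% higher. Of the constitutive probes 34 of 38 rose and 0 fell, with a median r of 0.363 against 0.0188 over all probes, and with the component as a covariate 31 rose and 0 fell at a median of 0.280. Psmb7, the beta subunit with trypsin-like activity, rose 1.07-fold per SD in both probes (r = 0.563 and 0.568, limma adjusted p = 3.52e-23 and 1.56e-23), and Psmc5 1.08-fold (r = 0.565, adjusted p = 2.45e-23). Psmb3, a structural beta subunit, had r of 0.519 and 0.536, and the ATPase Psmc3 had r = 0.506. The 6 that fell were Psmb10 (r = -0.330), Psmb9 (-0.202), Psmf1 (-0.290), Psme3 (-0.188), a Psme1 probe and a Psme2b probe (-0.203 each).

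With the scaffold subunit Psmd2 as anchor, taken in place of the unmeasured Psmd1, 38 of 49 other probes were called, 31 higher and 7 lower, where 36.0% of all probes were. All 5 ATPase probes rose, with a median r of 0.630. Of the partner list's 19 probes 8 rose, among them Vcp, its cofactors Ufd1 and Nploc4, the deubiquitinase Usp14 and the shuttle Ubqln1, and 3 fell, namely Sem1 (a small subunit of the regulatory particle), Uchl5 and Nfe2l2. With the catalytic subunit Psmb5 as anchor, 33 of 48 were called, 29 higher and 4 lower, where 52.5% of all probes were. Of the same 19 partner probes 7 rose and 5 fell along Psmb5. Ufd1 had r = -0.228 and Sem1 0.209 there, against 0.376 and -0.344 along Psmd2. Of 39 heat shock probes, from 13 genes, 12 rose and 11 fell along Psmb5, against 19 and 0 along Psmd2. Of all probes 30.8% were higher and 21.8% lower along Psmb5, and 21.2% and 14.7% along Psmd2. The counts of both lists along Psmb5 lay near these shares.

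Some of the named pairs passed and others did not. Psmd14 and the deubiquitinase Uchl5, which both act on ubiquitin at the regulatory particle, had r = 0.589, and Psmc1 and Psmd2 had r = 0.647 (adjusted permutation p = 1.435e-05 each). Nfe2l1, the transcription factor known to raise proteasome genes when proteasome activity is low, had r of 0.0660 with Psmb5 and 0.0713 with Psmd2, and neither passed (adjusted permutation p = 0.273 and 0.239). Nfe2l2 and Psmb5 had r = -0.0709 (adjusted permutation p = 0.249). The promoter of Psmb5 was 1 of the 2 member promoters with the antioxidant element core.

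Fewer members went with ER chaperones, and along acute phase genes only the share called in either direction was near the background. The ER chaperone list called 28 of 51, 25 higher and 3 lower, against 34.6% of all probes, and with the first principal component as a covariate the count was 15. All 25 that rose were constitutive, such as probes of Psmd4 (r = 0.334) and Psmd2 (r = 0.330). The 3 that fell were both Psme1 probes (r = -0.342 and -0.365) and Psmf1 (r = -0.163). The acute phase list called 17 of 51, 14 higher and 3 lower, where 31.5% of all probes were called. By direction 27.5% of members were higher and 5.88% lower, against 17.1% and 14.4% of all probes. All 14 higher were constitutive, and 7 of them stayed higher with the component as a covariate. The total count was 12 with the component as a covariate, 31 with the Eif2s3y cluster alone as block and 38 without blocks. Psma7 (r = 0.294) and Psma3 (r = 0.266), of the alpha ring, were among the higher and Psmf1 (r = -0.278) among the lower.

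Most constitutive genes fell with macrophage markers and fat storage genes, but most of these calls were lost with the first principal component as a covariate, which holds 10.8% of the variance and had r = -0.607 with the constitutive mean. The macrophage and Kupffer cell list called 44 of 51 probes, 9 higher and 35 lower, where 57.8% of all probes were called. Of all probes 39.4% were lower along it, and 33 of 38 constitutive probes fell. Psmc1 fell, to 0.946- and 0.944-fold per SD in its probes (r = -0.501 and -0.470) and Psmb7 to 0.946-fold in both (r = -0.474 and -0.482). The fat storage list (7 measured genes of 13, such as Cidea, Plin4 and Cd36) called 34 of 51, 4 higher and 30 lower. Of all probes 53.3% were called along it, 19.9% higher and 33.4% lower. Psmc5 had r = -0.378 there and Psme1 r of 0.340 and 0.345. With the component as a covariate, the macrophage count was 16 higher and 10 lower, and of the 33 constitutive probes that had fallen 8 still fell, 16 were not called and 9 rose. The fat storage count was 8 higher and 6 lower, and of its 27 constitutive falls 2 stayed, 22 were not called and 3 were called higher.

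The oxidative stress list (11 genes, such as Nqo1, Gclc and Gclm) called 28 of 51, 8 higher and 20 lower, or 54.9% against 54.3% of all probes, and with the component as a covariate 14 were higher and 9 lower. Psma2 fell with it at r = -0.399, and Psmd5 rose at r = 0.476. For the ribosomal protein list 36 of 51 were called, 23 higher and 13 lower, where 62.0% of all probes were, and for oxidative phosphorylation 39 of 51, 22 higher and 17 lower, where 64.1% were. Psmd5 fell with both, at r = -0.605 and -0.610, the lowest of the 51 probes along each.

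**Figure D4:**
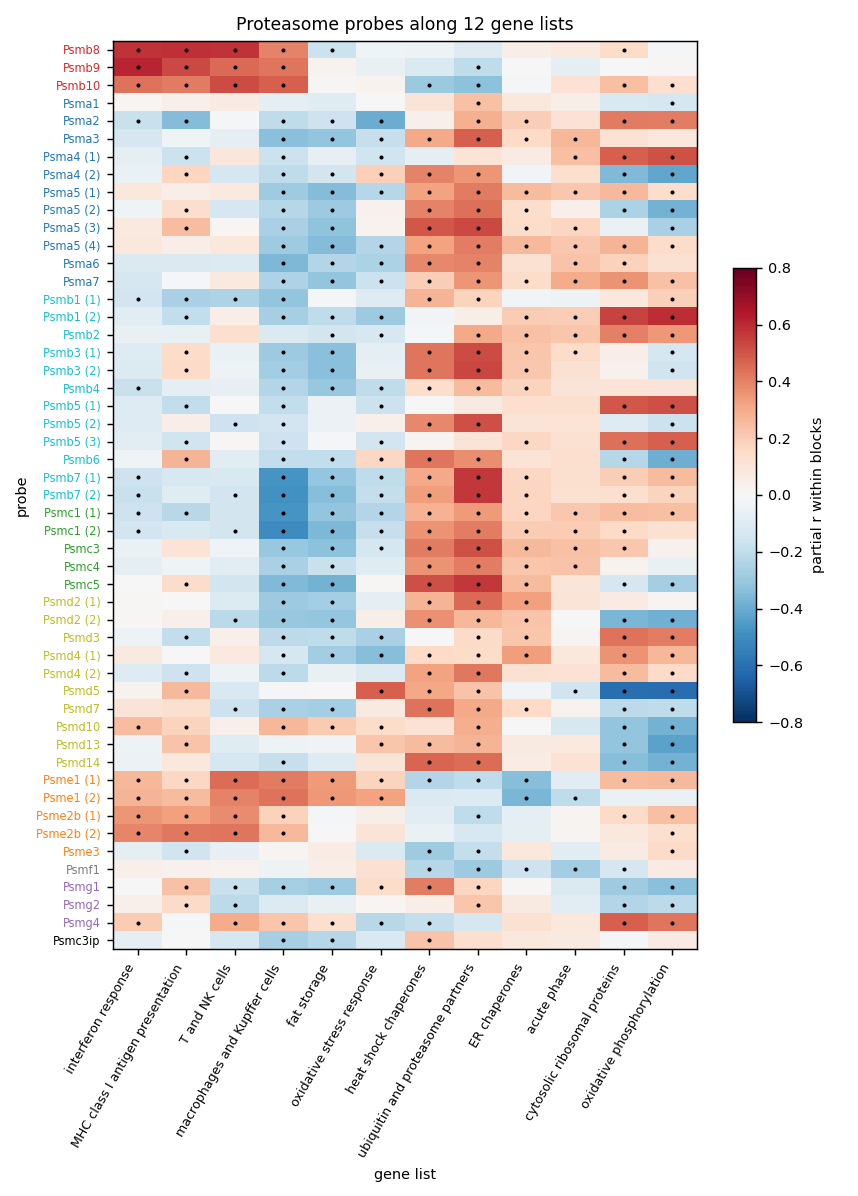
Partial r within blocks (colour, red positive and blue negative) of each of the 51 probes (rows, by role) with the mean of each of 12 gene lists (columns); a black dot marks a limma adjusted p under 0.05. Psmb8, Psmb9 and Psmb10 are red along the 4 immune lists on the left, and most constitutive probes are red along the heat shock and partner lists and blue along macrophages and fat storage.

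Probes of a gene did not always tell the same story. Over 18 pairs of probes of 1 member gene the median r was 0.689, and 11 were over 0.5, against a median of 0.219 over 4772 such pairs of all genes. The Psmb3 probes had r = 0.985 and the Psmc1 probes 0.939, but the Psma4 probes had r = -0.112 and the Psmb1 probes 0.0803, and the third probe of Psmb5 correlated with the other two at 0.120 and 0.171 while those had r = 0.926. The Psma4 probes had r of 0.512 and -0.416 with oxidative phosphorylation, and -0.0759 and 0.397 with heat shock chaperones. Likewise the Psmb5 probes had r of 0.515, 0.479 and -0.175 with oxidative phosphorylation. Which transcripts such probes read was not tested, and values of Psma4, Psmb1 and Psmb5 as genes are averages over unlike probes.

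**Figure D5:**
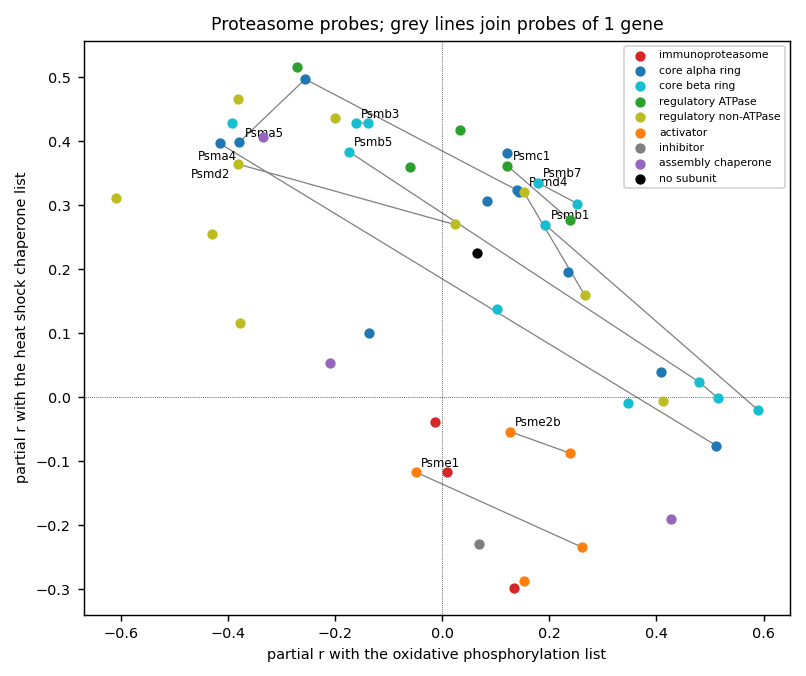
Partial r of each of the 51 probes with the oxidative phosphorylation list (x axis) and the heat shock list (y axis), coloured by role, with grey lines joining probes of the same gene. The lines of Psma4 and Psmb5 cross from the upper left to the lower right, while those of Psmb3 and Psmb7 are short.

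Mice with title numbers above 212 differed from those up to 212 in 41 of 51 probes, 25 higher and 16 lower, where 64.5% of all probes differed. The immunoproteasome was lower in the later numbers. Psmb9 averaged -0.160 ± 0.155 (SD, n = 143) above 212 and -0.0144 ± 0.136 (SD, n = 159) up to 212, 0.715-fold (limma adjusted p = 3.51e-15). Psmb10 averaged -0.0987 ± 0.117 above and -0.00899 ± 0.110 up to 212, 0.819-fold (adjusted p = 4.48e-12), and Psmb8 -0.0556 ± 0.139 and -0.00784 ± 0.109, 0.901-fold (adjusted p = 0.00187). The activators were lower too, in 5 of 5 probes, and Psmg4 at 0.876-fold. Higher were Psmd14, at 0.0709 ± 0.0798 above and -0.000280 ± 0.0852 up to 212 (1.18-fold), a Psma4 probe (1.19-fold) and all 5 ATPase probes (1.06- to 1.09-fold). The other Psma4 probe was lower, at 0.928-fold. The ranges of values overlapped in all 51 probes, and differences had the same sign on both sides of the Eif2s3y bound for Psmb9 (-0.134 and -0.157), Psmb10 (-0.0847 and -0.0880) and Psmd14 (0.0885 and 0.0538). What parts the ranges is not given, so processing and biology cannot be told apart.

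Within a range, the title number went with 24 of 51 probes, 13 higher and 11 lower, where 39.4% of all probes did, and all 3 immunoproteasome probes were lower at later numbers, Psmb9 at 0.800-fold per 100 numbers. With the principal component as a covariate 8 were higher and 14 lower. The total was 40 with the Eif2s3y cluster alone as block and 38 without blocks. An array's spread went with 13 of 51, 9 higher and 4 lower, where 36.8% of all probes did, and 0 of the 8 immunoproteasome and activator probes were among them. Without 6 arrays of wide spread that count was 25, and with array weights 22.

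Linked genes share alleles in an intercross, so pairs of neighbours on a chromosome were examined. Of 74 pairs of a member and its nearest measured gene on either side, 50 passed. That count has no background, since the share of other pairs that would pass was not computed. Of the 74 pairs 21, or 28.4%, had r beyond 0.3 in either direction. The share was 16.7% of 10792 adjacent named pairs and 12.3% of all pairs of named genes. Whether linkage lies behind these r was not tested. The highest were Psmb9 with Tap1 (r = 0.672), its neighbour in the MHC class II region, Psmd14 with Tank (0.659), Psmb8 with Tap1 (0.578), Psma3 with Tmx1 (0.462) and Psma1 with Copb1 (0.458, rho 0.568). Without the 2 farthest livers these were 0.611, 0.634, 0.487, 0.463 and 0.519. Opposite in sign were Psmc1 with Kcnk13 (-0.432), Psmb6 with Zmynd15 (-0.429) and Psmg4 with Prpf4b (-0.419). With the first principal component removed, Psmc1 with Kcnk13 was -0.109 and no longer passed (adjusted permutation p = 0.0929), Psmb6 with Zmynd15 was -0.177 and Psma3 with Tmx1 0.210, while Psmd14 with Tank was 0.604, Psma1 with Copb1 0.455 and Psmg4 with Prpf4b -0.374. Psme2b had r = 0.542 with Irgm1 and 0.538 with Tgtp1, both interferon-induced GTPases, but its place on the chromosome is uncertain with its name.

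A single member, the inhibitor Psmf1, parted the mice into separate clusters by the criteria used for all probes, where 2.77% of all probes did. Its components lay 3.42 SD apart and the smaller held 5.36% of the mice, close to the minimum of 5%. Its uncentred values ran from -0.200 through a median of 0.00469 to 0.144. Psmb8, with means 7.83 SD apart, was not counted because the smaller component held 0.332% of the mice, the single liver that stands apart in the plot of Psmb8.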

How the data were processed

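Each of 302 arrays set the RNA of 1 mouse liver, labelled Cy3, against a pool labelled Cy5, per the labels. The deposited table gives, for 23562 probes, log ratios without a stated base or direction, read here as log10. Values at the ends, -2 and 2, numbered 472 and 546, and none was a member's. What the authors did between scan and table is "not given in the sources used here", and the deposited log ratios were not normalized further. Array number and signal limit precision, and the depth of a spot is unknown.

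Genes were named from the platform's annotation through a GRCm38.p6 gene table. Of the probes 13655 had 1 symbol, 48 several and 9859 were not listed, and 12652 matched 10838 genes. Probes with values in at least 90% of mice were used (23512), and 0.0831% of values were missing.

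Slopes on a gene list's standardized mean were fitted over all probes with limma 3.58.1 in R 4.3.3, with the 4 blocks as covariates. Differences between title number ranges were fitted likewise, but with the Eif2s3y cluster alone as covariate, since the 4 blocks hold the range. Tests were two-sided, with Benjamini-Hochberg at 0.05 over all probes (background shares refer to this). The steps were tested on simulated data. Gene pairs used 100000 permutations within blocks. Separate clusters needed a BIC fall over 10, a distance over 3 SD and a smaller component of at least 5%. Gene values are means over probes. The members, lists and pairs were chosen with earlier results of these data known, and so were the block bounds. Named were members, genes of the lists and pairs, neighbours whose pair passed, Eif2s3y and the 10 genes most like the constitutive mean. Each mouse is 1 animal with 1 array, so the p-values rest on differences between mice in which animal and array variation are not separated.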

Additional observations from a re-analysis of the deposited data

How the results depend on the processing

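Total counts of called member probes, both directions together, stayed within 1.5 times their value in most alternatives, with these exceptions. Without blocks, the interferon count was 25, acute phase 38, number within range 38 and separate clusters 2. With the Eif2s3y cluster alone as block, acute phase was 31 and number within range 40. With the first principal component as a covariate, ER chaperones were 15, macrophages 26 and fat storage 14. Array spread was 25 without 6 arrays of wide spread and 22 with array weights. The median SD was 0.0503 by MAD, 0.0605 without blocks and 0.0511 with the component removed. Under that component these turned sign: with macrophages Psmb3 (r = 0.146 and 0.136), Psma5 (0.176 and 0.229), Psmd14 (0.217), Psma3 (0.234), Psma7 (0.168), Psmb6 (0.143) and Psma4 (0.281); with fat storage Psma6 (0.206), Psmg4 (-0.216), Psma3 (0.196) and Psma4 (0.306); and Psma4 with its neighbour AY074887 (-0.270). The cause was not tested. Of the member values in the fits, 705 kept direction and call under the component, 148 lost the call and 52 gained it. No paired analysis was possible because the labels give 1 group and each number belongs to 1 mouse. Values below a probe's background could not be told from others, since the table holds no signal.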
